A study of Mus musculus with 10 samples.

Results

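The monoamine genes described here make, load, take up, break down or receive dopamine, noradrenaline, serotonin and histamine. The set holds 38 genes, chosen by name from the 25050 genes of a table of read counts, and each of the 38 had a row of its own. By role they were 6 genes for synthesis, 5 transporters, 2 enzymes of breakdown, 5 dopamine receptors, 11 serotonin receptors, 6 adrenergic receptors and 3 histamine receptors. RNA sequencing had been run on whole brains of FVB/NJ mice, an inbred strain, with 5 brains labelled wildtype (Abcc5+/+) and 5 labelled Abcc5 knockout (Abcc5-/-). Abcc5 encodes an ABC transporter that exports organic anions. The mice were killed with CO2, the brains were frozen on dry ice, and polyadenylated RNA was sequenced. Age, sex, litter and the deleted part of Abcc5 were not given in the sources used here. The labels number 5 brains per genotype, so each p-value for a genotype difference weighs it against the spread between these brains.

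Monoamines are made by small clusters of neurons in the brainstem, midbrain and hypothalamus whose axons reach most of the brain. For dopamine and serotonin an amino acid is hydroxylated and then decarboxylated, while histamine needs the decarboxylation alone. The product is loaded into vesicles by VMAT2 (Slc18a2). After release, dopamine, noradrenaline and serotonin are taken back up by a carrier at the plasma membrane or broken down by monoamine oxidase. The synthesis enzymes and the carriers therefore mark few cells, while the receptors are spread over neurons of the striatum, cortex, hippocampus and other target regions. In RNA from whole tissue, fewer cells of a type and less RNA per cell cannot be told apart.

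The libraries held 7731294 to 23588335 counts. Abcc5 itself, the targeted gene, was measured at 299.2 to 325.9 CPM (counts scaled to the size of the library) in the wildtype brains and at 210.7 to 226.2 CPM in the knockout brains, a log2 fold change of -0.51 (SE 0.0411, edgeR quasi-likelihood test, adjusted p = 6.35e-06), so the labels and the targeted gene went together in every library. Knockout replicate 3 stood apart from the other 9 libraries. Its summed level of 12 cerebellar markers was 336.8 CPM against 1541 to 1795 CPM, its 13 hindbrain and spinal cord markers summed to 4.88 CPM against 62.5 to 101.4 CPM, and its 7 cortical markers summed to 488.6 CPM against 353.6 to 400.6 CPM. Knockout replicates 1 and 2 were low in olfactory bulb genes: Cdhr1, a cadherin-related gene of mitral and tufted cells, was at 6.02 and 8.84 CPM against 24.4 to 37.7 CPM in the other 8 libraries, and Doc2g at 1.51 and 2.46 CPM against 6.11 to 9.01 CPM. The whole list of 9 olfactory bulb markers, some of them shared with the cerebellum, summed to 151.5 and 166.9 CPM in these brains and 154.6 CPM in knockout replicate 3, against 193.5 to 232.4 CPM in the other 7 libraries. All 9 had a log2 fold change below 0 (median -0.51). Of them 1 was called, Eomes (-1.27, edgeR adjusted p = 0.00805), where 0.964% of all tested genes were called lower. Its log2 CPM was 1.93 to 3.66 in the knockout and 3.89 to 4.18 in the wildtype brains. Eomes was still called without knockout replicates 1 and 2 (-0.88, edgeR adjusted p = 0.0313). Calb2 of the same list was not low in those 2 brains (6.88 and 6.99 log2 CPM). Microglial markers, 8 genes, summed to 179.8 to 198.3 CPM in the wildtype and 213.5 to 257.1 CPM in the knockout brains, so those ranges did not overlap. No marker of these lists was at 0 in all libraries. Except where values are given without the libraries concerned, the part of these differences in the results was not tested.

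None of the monoamine genes passed the test for a difference between the genotypes. Of the 38, 34 had enough counts to be tested, 0 were called higher and 0 lower in knockout at an adjusted p under 0.05 (edgeR quasi-likelihood test, Benjamini-Hochberg over 14526 tested genes), and 0 had an unadjusted p under 0.05. Over all tested genes, 1.18% were called at the adjusted threshold (0.213% higher and 0.964% lower) and 14.8% had an unadjusted p under 0.05 (6.74% higher and 8.03% lower). DESeq2 and limma-voom each also called 0 of the 34, as did limma-voom with library weights. No member had 5 wildtype values that all lay above or all below the 5 knockout values, against 4.19% of all tested genes (1.54% higher and 2.64% lower in knockout). Their log2 fold changes ran from -0.34 for Htr1b to 0.23 for Dbh, with 20 above 0 and 14 below, and their median was 0.03 against 0.0042 over all tested genes. The balance of signs turned with library weights (limma-voom), where 14 lay above 0 and the median was -0.02, and in the 7 shallower libraries alone 24 lay above 0. The smallest unadjusted p was 0.0860, for Hrh2, with an adjusted p of 0.417.

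The width of the intervals says how large a difference these brains could still hold. The 95% interval of the log2 fold change included 0 in each of the 34 genes, and in 31 of them it lay inside a 1.5-fold change in either direction (0.58 on the log2 scale). The others were Dbh, Drd5 and Htr1b, and over all 34 genes the bounds ran from -0.76 to 0.62. The 4 genes left untested had few counts in every library: Fev 1 to 16, Drd3 3 to 23, Drd4 1 to 7 and Slc18a1 0 to 9. The low-count filter left these 4 out. With no such filter all 38 members were tested, 0 were called and the smallest unadjusted edgeR p was 0.0877, for Adra1b. The 0 for Slc18a1 was in knockout replicate 1, where a count of 0 allows up to 0.347 CPM (3 counts, counting error only).

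**Figure D1:**
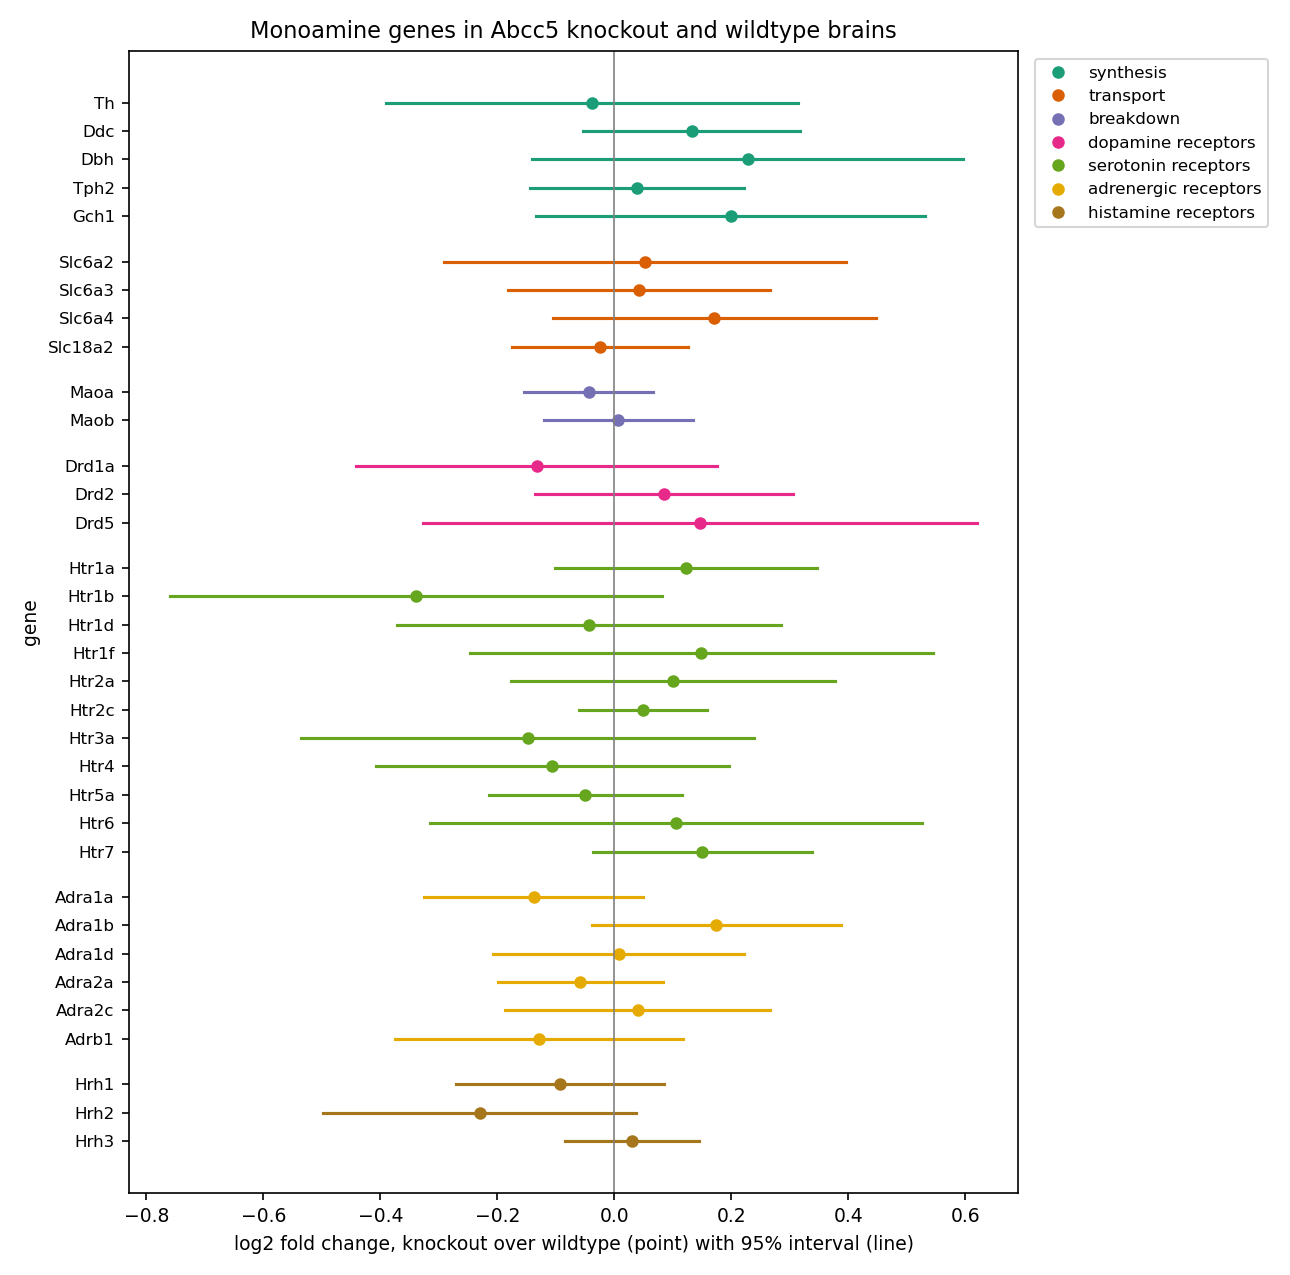
Log2 fold change of the 34 tested monoamine genes, knockout over wildtype (x axis), with the 95% interval as a line, 1 gene per row and coloured by role. Each of the 34 lines crosses 0; Htr1b has the lowest point (-0.34) and Dbh the highest (0.23).

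The synthesis genes had a median log2 fold change of 0.13 over 5 tested genes, 4 above 0 and 1 below. Th encodes tyrosine hydroxylase, the rate-limiting enzyme of dopamine and noradrenaline synthesis, and lies on chromosome 7 at 150078657 to 150117033, coordinates of the authors' table in a build it does not state. The 5 wildtype brains had 19.3, 16.7, 16.4, 14.3 and 16.1 CPM of Th and the knockout brains 11.5, 11.4, 23.0, 18.5 and 19.0 CPM, in replicate order. Knockout replicates 1 and 2 were the lowest of all 10 libraries and knockout replicate 3 the highest, so the knockout values spanned the wildtype ones. The means were 16.6 ± 1.79 and 16.7 ± 5.08 CPM (SD, n = 5 each), and the log2 fold change was -0.04 (SE 0.165, 95% interval -0.39 to 0.31, adjusted p = 0.951). The fit weights the deeper libraries more, and its sign was opposite to that of the difference between the means here and in Maob and Htr1d. Th is also made by interneurons of the olfactory bulb, and the brains with the least Th were those low in Cdhr1 and Doc2g. Without those 2 brains, chosen after seeing the data, the Th log2 fold change was 0.25 (unadjusted edgeR p 0.0337, adjusted p = 0.397). Both were knockout brains and held the 2 lowest Th values, so leaving them out necessarily raises the knockout mean. That p therefore cannot be read as a test of genotype. Whether the share of olfactory bulb tissue set the Th level was not tested.

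The next steps of the pathway varied less. Ddc, aromatic amino acid decarboxylase, which makes dopamine and serotonin from their precursors, was at 18.4, 15.6, 17.2, 18.8 and 15.8 CPM in the wildtype and 17.9, 19.7, 20.8, 20.1 and 15.1 CPM in the knockout brains. Knockout replicates 2, 3 and 4 lay above the highest wildtype value and replicate 5 below the lowest. Its log2 fold change was 0.13 (SE 0.0871, 95% interval -0.05 to 0.32, adjusted p = 0.506). Dbh converts dopamine to noradrenaline and had 2.82, 2.20, 1.68, 2.44 and 1.40 CPM in the wildtype and 2.55, 2.41, 2.64, 2.75 and 2.81 CPM in the knockout brains. The knockout values all fell inside the wildtype range. The difference was 0.23 on the log2 scale (SE 0.173, 95% interval -0.14 to 0.60, adjusted p = 0.585). Leaving out 1 brain moved it between 0.13 (without wildtype replicate 5) and 0.40 (without wildtype replicate 1, unadjusted edgeR p 0.0412, adjusted p = 0.248).

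Tph2, tryptophan hydroxylase of brain serotonin neurons, was among the least variable synthesis genes. Its wildtype levels were 12.99, 10.02, 13.8, 13.7 and 12.7 CPM and its knockout levels 12.4, 13.3, 12.4, 13.05 and 13.6 CPM. Wildtype replicate 2 was the lowest library and the other 9 lay within 12.4 to 13.8 CPM. The log2 fold change was 0.04 (SE 0.0859, 95% interval -0.14 to 0.22, adjusted p = 0.884). Gch1, which starts the synthesis of the hydroxylases' cofactor tetrahydrobiopterin, ranged from 2.33 to 3.32 CPM in the wildtype and from 2.78 to 4.49 CPM in the knockout brains. Knockout replicate 3 was the highest, and the log2 fold change was 0.20 (SE 0.156, adjusted p = 0.610). Fev, a transcription factor of serotonin neurons, had 0.117 to 0.503 CPM in the wildtype and 0.264 to 0.695 CPM in the knockout brains and was not tested.

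Promoters of the monoamine genes were searched for motifs because transcripts of factors that bind such motifs were lower in the knockout brains. Those of 3 genes with a match, Th, Slc18a2 and Ddc, are shown. Nr4a1, Fos, Egr1 and Creb1 encode transcription factors, the first 3 of them immediate early genes. Their log2 fold changes were -0.995 for Nr4a1, -1.07 for Fos, -0.60 for Egr1 and -0.29 for Creb1, with adjusted edgeR p of 0.000506, 0.000862, 0.0308 and 0.0303. RefSeq promoters (GRCm38.p6, 250 bases before to 50 after the start) were found for 31 of the 38 genes, in 40 windows. They were searched on both strands for 4 motifs, none of which contains another. Matches in members are named by gene, while the percentages are of single promoters, so the units are unlike. The cyclic AMP response element TGACGTCA was in the promoters of Th and Slc18a2 and in 1.79% of 32851 promoters. The AP-1 site TGAGTCA was in Adra1b and Hrh1 and in 5.2% of promoters, the Egr site GCGTGGGCG in Htr7 and 0.612%, and the Nr4a site AAAGGTCA in Ddc and 1.51%. Capitals mark the match in the lines that follow. Coordinates are those of the whole window. The match begins 45 bases before the start in Th (chr7:142899946-142900245, minus strand). In Slc18a2 (chr19:59260628-59260927, plus strand) it begins 4 bases before the start and runs across it. In Ddc (chr11:11898095-11898394, minus strand) it begins 73 bases before the start, on the other strand.
Th: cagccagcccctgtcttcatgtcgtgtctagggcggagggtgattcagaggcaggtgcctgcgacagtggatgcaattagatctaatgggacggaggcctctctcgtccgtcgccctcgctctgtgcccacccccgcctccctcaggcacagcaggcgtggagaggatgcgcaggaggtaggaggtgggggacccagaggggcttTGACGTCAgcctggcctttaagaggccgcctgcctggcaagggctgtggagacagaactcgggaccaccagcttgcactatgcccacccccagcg
Slc18a2: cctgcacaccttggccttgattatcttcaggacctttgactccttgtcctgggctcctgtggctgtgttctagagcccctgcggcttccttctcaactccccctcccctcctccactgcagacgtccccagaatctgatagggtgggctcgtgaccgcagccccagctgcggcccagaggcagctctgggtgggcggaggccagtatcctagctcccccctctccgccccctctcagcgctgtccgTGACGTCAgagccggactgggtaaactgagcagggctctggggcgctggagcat
Ddc: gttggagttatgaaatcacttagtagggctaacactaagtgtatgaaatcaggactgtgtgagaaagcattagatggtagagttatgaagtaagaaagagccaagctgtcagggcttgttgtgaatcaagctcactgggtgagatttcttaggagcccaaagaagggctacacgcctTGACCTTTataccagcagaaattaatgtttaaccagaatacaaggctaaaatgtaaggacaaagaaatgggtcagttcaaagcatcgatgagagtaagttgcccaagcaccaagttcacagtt
A match describes the letters only, and whether the named factors act on these genes was not tested. The transcripts of these 3 genes did not pass the test, with log2 fold changes of -0.04, -0.02 and 0.13.

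The transporters had a median log2 fold change of 0.05 over 4 tested genes, 3 above 0 and 1 below. Slc6a4, the serotonin transporter, is the target of the serotonin reuptake inhibitors. Its wildtype levels were 10.2, 5.81, 7.35, 8.46 and 8.17 CPM and its knockout levels 9.50, 8.52, 8.44, 10.6 and 8.55 CPM. Wildtype replicate 2 was the lowest here as it was for Tph2, and knockout replicate 4 the highest. The means were 7.99 ± 1.59 and 9.13 ± 0.946 CPM (SD, n = 5 each), with a log2 fold change of 0.17 (SE 0.130, 95% interval -0.11 to 0.45, adjusted p = 0.573). Leaving out 1 brain moved it between 0.077 (without wildtype replicate 2) and 0.31 (without wildtype replicate 1, unadjusted edgeR p 0.0265, adjusted p = 0.204).

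Slc6a3, the dopamine transporter, was at 17.1, 15.8, 13.8, 18.1 and 13.5 CPM in the wildtype and 15.98, 15.4, 21.2, 14.8 and 15.9 CPM in the knockout brains. The highest library was knockout replicate 3, and the other 4 knockout values lay inside the wildtype range, those of replicates 1 and 2 among them. Between genotypes the log2 fold change was 0.04 (SE 0.105, 95% interval -0.18 to 0.27, adjusted p = 0.901). Slc6a2, the noradrenaline transporter, had 2.11, 2.40, 2.84, 2.79 and 1.98 CPM in the wildtype and 2.55, 2.23, 2.64, 2.25 and 3.30 CPM in the knockout brains. The groups overlapped over most of their range, and the log2 fold change was 0.05 (SE 0.161, adjusted p = 0.948). Slc18a2, the vesicular transporter shared by all monoamine neurons, averaged 24.2 ± 1.79 CPM over the wildtype and 23.96 ± 1.80 CPM over the knockout libraries (SD, n = 5 each), a log2 fold change of -0.02 (SE 0.0708, 95% interval -0.17 to 0.13, adjusted p = 0.919). Slc18a1, the vesicular transporter of endocrine cells, had at most 0.523 CPM in any library.

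The 2 monoamine oxidases, mitochondrial enzymes that oxidise monoamines, gave the narrowest intervals along with Htr2c and Hrh3. Maoa, which prefers serotonin and noradrenaline, was at 48.03, 51.1, 49.3, 50.5 and 50.5 CPM in the wildtype and 53.96, 46.3, 48.9, 46.9 and 46.4 CPM in the knockout brains. Knockout replicate 1 was the highest library, while 3 of the other knockout brains lay below every wildtype one. The log2 fold change was -0.04 (SE 0.0520, 95% interval -0.15 to 0.07, adjusted p = 0.745). Maob, found mainly in astrocytes and serotonin neurons, averaged 24.7 ± 0.718 CPM over the wildtype and 24.6 ± 1.63 CPM over the knockout libraries (SD, n = 5 each) and a log2 fold change of 0.01 (SE 0.0597, 95% interval -0.12 to 0.13, adjusted p = 0.977).

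The dopamine receptors had a median log2 fold change of 0.09 over 3 tested genes, 2 above 0 and 1 below. Drd1a, the D1 receptor of striatal neurons that project to the substantia nigra, was at 25.8, 26.9, 28.8, 26.6 and 29.2 CPM in the wildtype and 26.5, 25.2, 36.1, 16.4 and 24.3 CPM in the knockout brains. Of all libraries knockout replicate 3 was the highest and knockout replicate 4 the lowest, and the wildtype values lay between them. Between genotypes the log2 fold change was -0.13 (SE 0.145, 95% interval -0.44 to 0.18, adjusted p = 0.721). Striatal markers, 12 genes, followed the same order at the ends: they summed to 1066 CPM in knockout replicate 3 and 733.1 CPM in knockout replicate 4, against 829.7 to 986.1 CPM in the other 8 libraries. Without knockout replicate 3 the Drd1a log2 fold change was -0.27, with an unadjusted edgeR p of 0.0211 and an adjusted p of 0.192. Without knockout replicate 4 it was 0.02.

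Drd2, the D2 receptor of the other class of striatal projection neurons and of dopamine neurons themselves, was at 30.3, 28.9, 24.6, 24.9 and 22.5 CPM in the wildtype and 29.9, 28.9, 34.8, 23.9 and 24.8 CPM in the knockout brains. The highest value was again that of knockout replicate 3, and the remaining knockout values lay inside the wildtype range. The log2 fold change was 0.09 (SE 0.103, 95% interval -0.14 to 0.31, adjusted p = 0.754). Drd5, the D1-like receptor of cortex and hippocampus, had 1.06, 1.90, 2.06, 2.01 and 2.22 CPM in the wildtype and 1.62, 2.00, 2.77, 1.61 and 1.95 CPM in the knockout brains. Wildtype replicate 1 was the lowest library by a wide gap, and the log2 fold change was 0.15 (SE 0.222, 95% interval -0.33 to 0.62, adjusted p = 0.815). Drd3 and Drd4 reached at most 1.16 and 0.396 CPM.

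**Figure D2:**
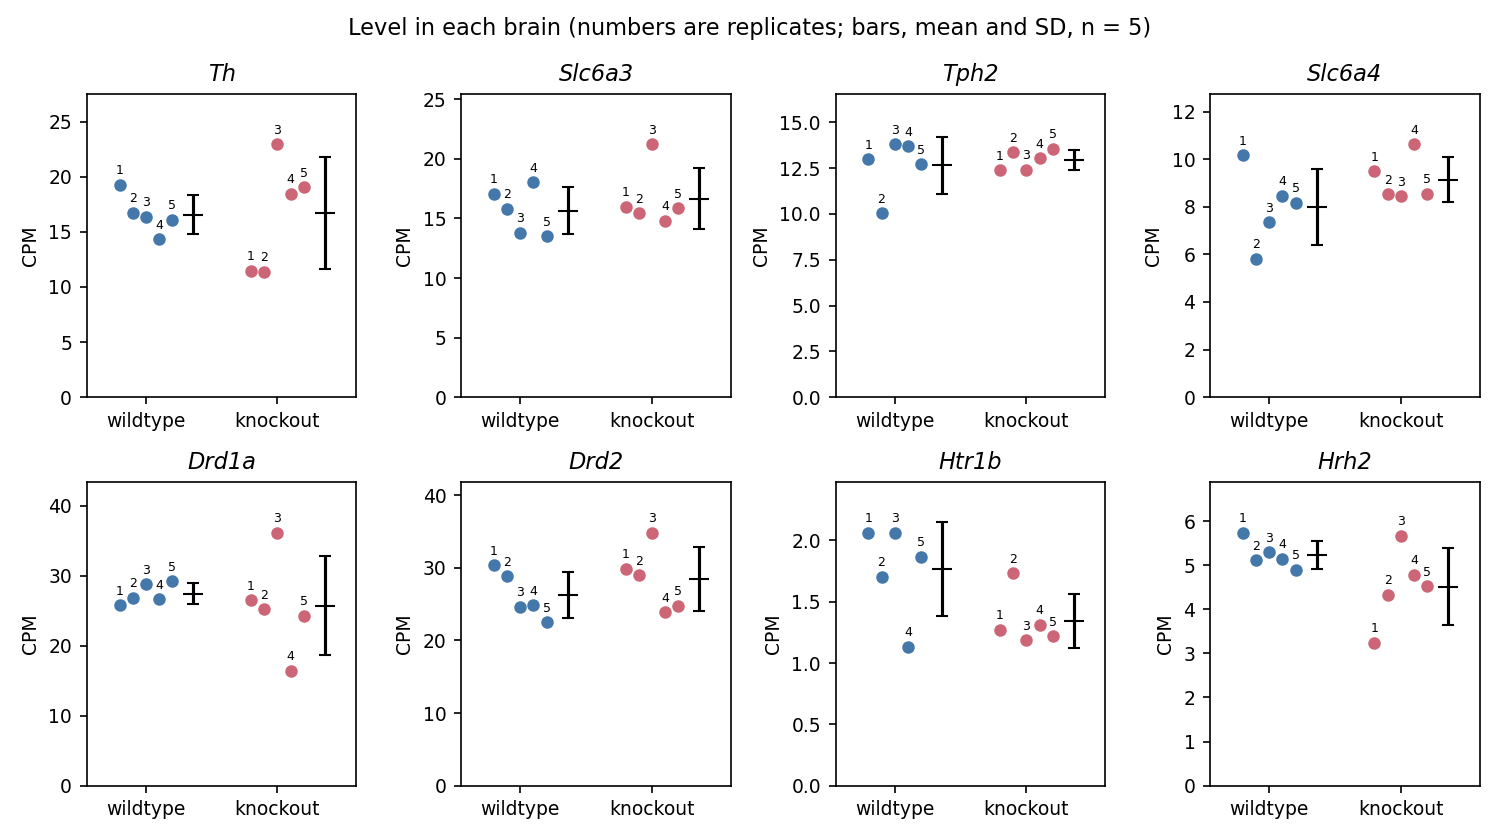
CPM (y axis) of 8 monoamine genes in the 5 wildtype and 5 knockout brains; numbers are replicate numbers and the bars give the mean and SD. Knockout replicates 1 and 2 are the lowest for Th (11.5 and 11.4 CPM) and not for Slc6a3, and for Drd1a knockout replicates 3 and 4 lie at the ends (36.1 and 16.4 CPM).

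The serotonin receptors had a median log2 fold change of 0.05 over 11 tested genes, 6 above 0 and 5 below. Htr1b, an inhibitory receptor on the endings of serotonin and other neurons, had the lowest log2 fold change of all members. It was at 2.06, 1.70, 2.06, 1.13 and 1.87 CPM in the wildtype and 1.27, 1.73, 1.19, 1.31 and 1.22 CPM in the knockout brains. Wildtype replicate 4 was the lowest of all 10 libraries, and the other 4 wildtype brains lay above 4 of the 5 knockout brains. The means were 1.77 ± 0.384 and 1.35 ± 0.221 CPM (SD, n = 5 each) and the log2 fold change was -0.34 (SE 0.198, 95% interval -0.76 to 0.08, adjusted p = 0.446). These levels rest on 9 to 41 counts per library. Leaving out 1 brain moved it between -0.49 (without knockout replicate 2) and -0.23 (without wildtype replicate 1), and none of these values passed the adjusted threshold. The gene's interval overlaps that of D430036J16Rik; such overlaps with another gene occur in 7 members, also in Ddc, Slc18a1, Drd5, Adra1d, Hrh2 and Hrh3. These are overlaps of whole gene intervals, introns included, and whether counting used strand is not stated. Whether any reads are shared between such genes was not tested.

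Htr7, a receptor that stimulates adenylyl cyclase, ranged from 12.4 to 14.9 CPM in wildtype (median 13.7) and from 12.8 to 18.3 CPM in the knockout brains (median 15.2). Knockout replicate 3 was the highest, and the log2 fold change was 0.15 (SE 0.0879, 95% interval -0.04 to 0.34, adjusted p = 0.447). Htr2c, a receptor abundant in the choroid plexus and in neurons, was the member with the highest CPM, at 85.3, 94.0, 88.2, 86.2 and 86.9 CPM in the wildtype and 91.4, 89.9, 101.7, 84.3 and 89.9 CPM in the knockout brains. The groups overlapped, with both ends held by knockout brains, and the log2 fold change was 0.05 (SE 0.0514, 95% interval -0.06 to 0.16, adjusted p = 0.706).

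Htr6, Htr1f and Htr3a had the largest coefficients of variation among the serotonin receptors (27.0%, 23.3% and 20.6%), where counting alone gives 16.6%, 17.7% and 19.9%. Htr6, a receptor found mainly in the brain, was at 3.17, 3.41, 3.23, 3.32 and 3.50 CPM in the wildtype and 3.24, 4.46, 5.14, 2.97 and 1.83 CPM in the knockout brains. The wildtype brains lay close together and the knockout brains reached beyond them at both ends, from replicate 5 to replicate 3. Between genotypes the log2 fold change was 0.11 (SE 0.197, adjusted p = 0.855). Htr1f, a receptor coupled to inhibitory G proteins, ranged from 2.06 CPM in wildtype replicate 1 to 4.75 CPM in knockout replicate 3, with the other 8 libraries between 2.54 and 3.05 CPM. Its log2 fold change was 0.15 (SE 0.185, adjusted p = 0.761), and 0.0079 without wildtype replicate 1. Htr3a, the subunit of the serotonin-gated ion channel carried by cortical interneurons, had 1.98 to 3.23 CPM in the wildtype and 1.74 to 2.89 CPM in the knockout brains and a log2 fold change of -0.15 (SE 0.182, adjusted p = 0.757). The remaining serotonin receptors, Htr1a, Htr1d, Htr2a, Htr4 and Htr5a, had log2 fold changes from -0.11 for Htr4 to 0.12 for Htr1a and adjusted p from 0.628 to 0.939.

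The adrenergic receptors had a median log2 fold change of -0.03 over 6 tested genes, 3 above 0 and 3 below. The 2 with the smallest p, both coupled to phospholipase C, lay on opposite sides of 0. Adra1b was at 12.7, 11.6, 13.03, 12.999 and 11.7 CPM in the wildtype and 14.2, 15.7, 16.4, 12.9 and 10.7 CPM in the knockout brains. Knockout replicates 1, 2 and 3 lay above every wildtype brain and replicate 5 below all of them. The log2 fold change was 0.17 (SE 0.0997, 95% interval -0.04 to 0.39, adjusted p = 0.439). Leaving out brains moved it between 0.092 (without knockout replicates 1 and 2) and 0.23 (without knockout replicate 5, unadjusted edgeR p 0.0166, adjusted p = 0.210). Adra1a had 15.002, 14.4, 17.4, 18.2 and 16.5 CPM in the wildtype and 13.5, 14.4, 14.8, 13.98 and 17.7 CPM in the knockout brains. Only knockout replicate 5 exceeded the wildtype median of 16.5 CPM, and the log2 fold change was -0.14 (SE 0.0880, 95% interval -0.32 to 0.05, adjusted p = 0.488).

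Adra2a, the autoreceptor of noradrenaline neurons, was at 17.3 to 19.9 CPM in the wildtype and 15.9 to 18.7 CPM in the knockout brains, with knockout replicate 1 the lowest and a log2 fold change of -0.06 (SE 0.0662, adjusted p = 0.737). Adra2c, the related receptor of the striatum, ranged from 10.5 to 16.1 CPM in the wildtype and from 11.96 to 14.4 CPM in the knockout brains. The knockout values lay inside the wildtype range, with replicate 5 below the other 4, and the log2 fold change was 0.04 (SE 0.107, adjusted p = 0.911). Adra1d and Adrb1, the beta-1 receptor, had log2 fold changes of 0.0072 and -0.13, with adjusted p of 0.989 and 0.646. Leaving out 1 brain moved that of Adrb1 between -0.21 (without knockout replicate 3, unadjusted edgeR p 0.0390, adjusted p = 0.250) and -0.082 (without knockout replicate 4).

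The histamine receptors had a median log2 fold change of -0.09 over 3 tested genes, 1 above 0 and 2 below. Hrh2, which stimulates adenylyl cyclase, was at 5.74, 5.11, 5.29, 5.15 and 4.90 CPM in the wildtype and 3.24, 4.33, 5.67, 4.79 and 4.52 CPM in the knockout brains. In Hrh2, 4 of the 5 knockout brains lay below every wildtype brain, and knockout replicate 3 lay among the wildtype brains. The means were 5.24 ± 0.313 and 4.51 ± 0.876 CPM (SD, n = 5 each), with a log2 fold change of -0.23 (SE 0.125, 95% interval -0.50 to 0.04, adjusted p = 0.417). Without knockout replicate 3 it was -0.29, with an unadjusted edgeR p of 0.0335 and an adjusted p of 0.234, and without knockout replicates 1 and 2 it was -0.099. Hrh1, the receptor blocked by sedating antihistamines, ranged from 12.3 to 14.7 CPM in the wildtype and from 11.8 to 15.04 CPM in the knockout brains, with a log2 fold change of -0.09 (SE 0.0837, adjusted p = 0.649). Hrh3, the autoreceptor of histamine neurons that also sits on other endings, had 55.3 ± 2.30 and 56.4 ± 3.90 CPM (SD, n = 5 each) and a log2 fold change of 0.03 (SE 0.0539, 95% interval -0.08 to 0.14, adjusted p = 0.846). Per kilobase of exon, Hrh3 had the highest level of the members, 17.6 CPM per kilobase in wildtype brains, followed by Maoa at 11.97, Drd2 at 10.3 and Htr2c at 9.45.

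The spread between brains was set against the counting error, which is larger for genes with few counts. No such share was taken over all tested genes. In 24 of the 34 tested genes the coefficient of variation of CPM within the genotypes was under 1.5 times that from counting alone. It was over that in 10, namely Th, Slc6a3, Drd1a, Drd2, Htr1a, Htr2a, Htr2c, Htr6, Adra2c and Adrb1, and in Th and Drd1a it was 22.9% and 19.1% where counting gives 7.53% and 5.95%. Knockout replicate 3 was the highest of the 10 libraries in 20 of the 34 genes, in 14 of 23 receptors and 6 of the 11 others, and the lowest in 0. Over all tested genes it was the highest in 19.4% and the lowest in 19.2%.

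**Figure D3:**
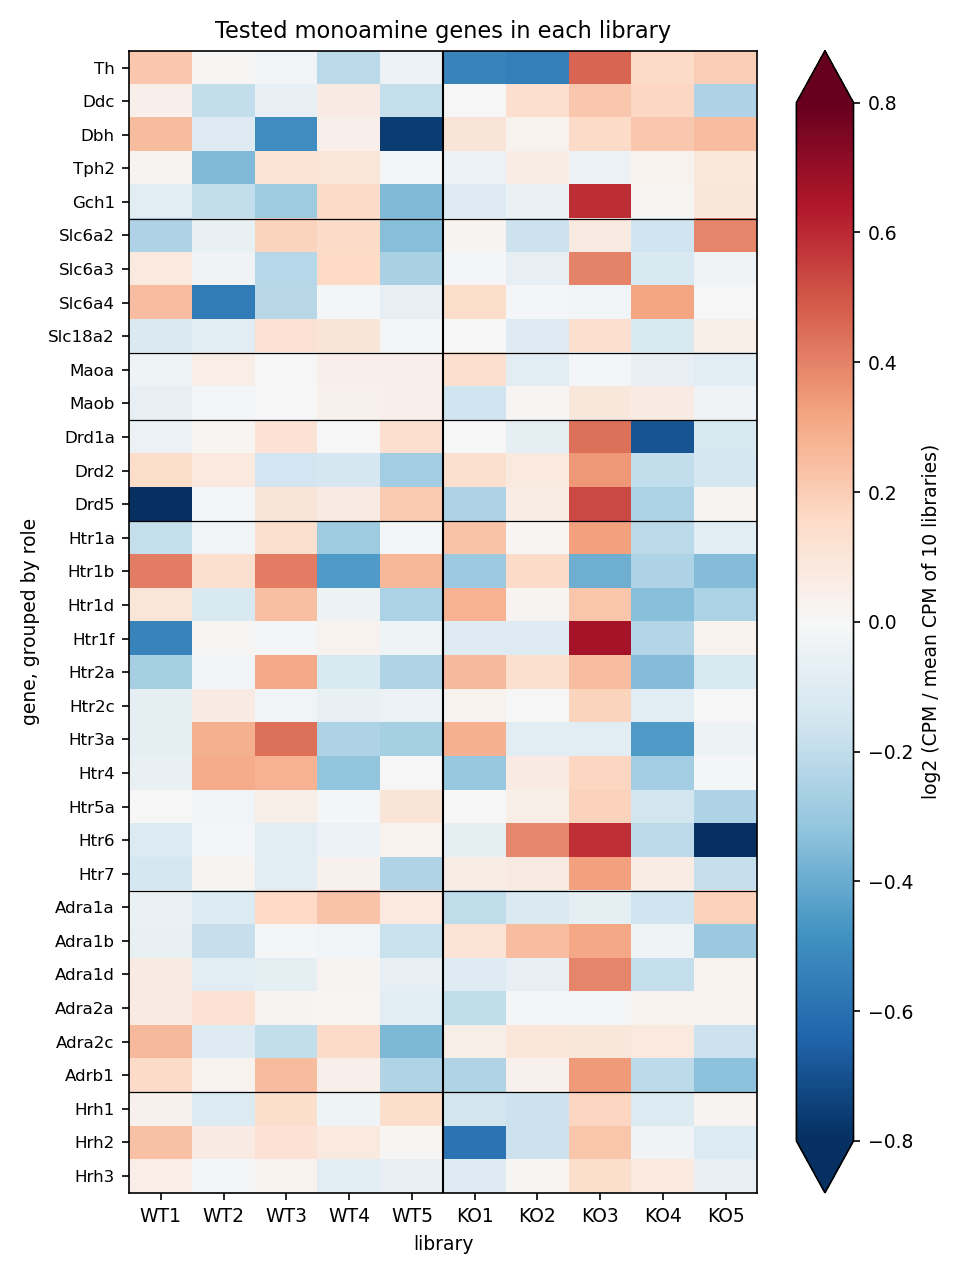
Level of the 34 tested monoamine genes (rows, grouped by role) in each library (columns; WT wildtype, KO knockout, numbered by replicate), as log2 of CPM over the mean of the 10 libraries, red above and blue below. The column of knockout replicate 3 holds the highest value in 20 of 34 rows, and Th is blue in knockout replicates 1 and 2.

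The markers of noradrenaline and serotonin neurons did not follow the hindbrain markers in knockout replicate 3. That library had 4.88 CPM of hindbrain and spinal cord markers, 62.5 CPM being the lowest sum elsewhere. Its Tph2 (12.4 CPM), Slc6a4 (8.44 CPM), Dbh (2.64 CPM) and Slc6a2 (2.64 CPM) all lay within the range of the other 9 libraries. Midbrain dopamine neuron markers, 9 genes, summed to 52.5 CPM there against 64.2 to 69.3 CPM elsewhere, a difference carried by 1 abundant gene, Aldh1a1, at 28.2 CPM against 44.0 to 50.1 CPM. Chrnb3 (4.09 CPM) and Ntsr1 (12.005 CPM) of the same list were at their highest in that library, as were Th (23.0 CPM) and Slc6a3 (21.2 CPM), and En1 (1.85 CPM) at its lowest. Of the markers with low levels, Pitx3 was also at its highest there (-1.25 log2 CPM) and Foxa1 at its lowest (-0.86 log2 CPM). Foxa2, Lmx1a and Chrna6 were at neither end.

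**Figure D4:**
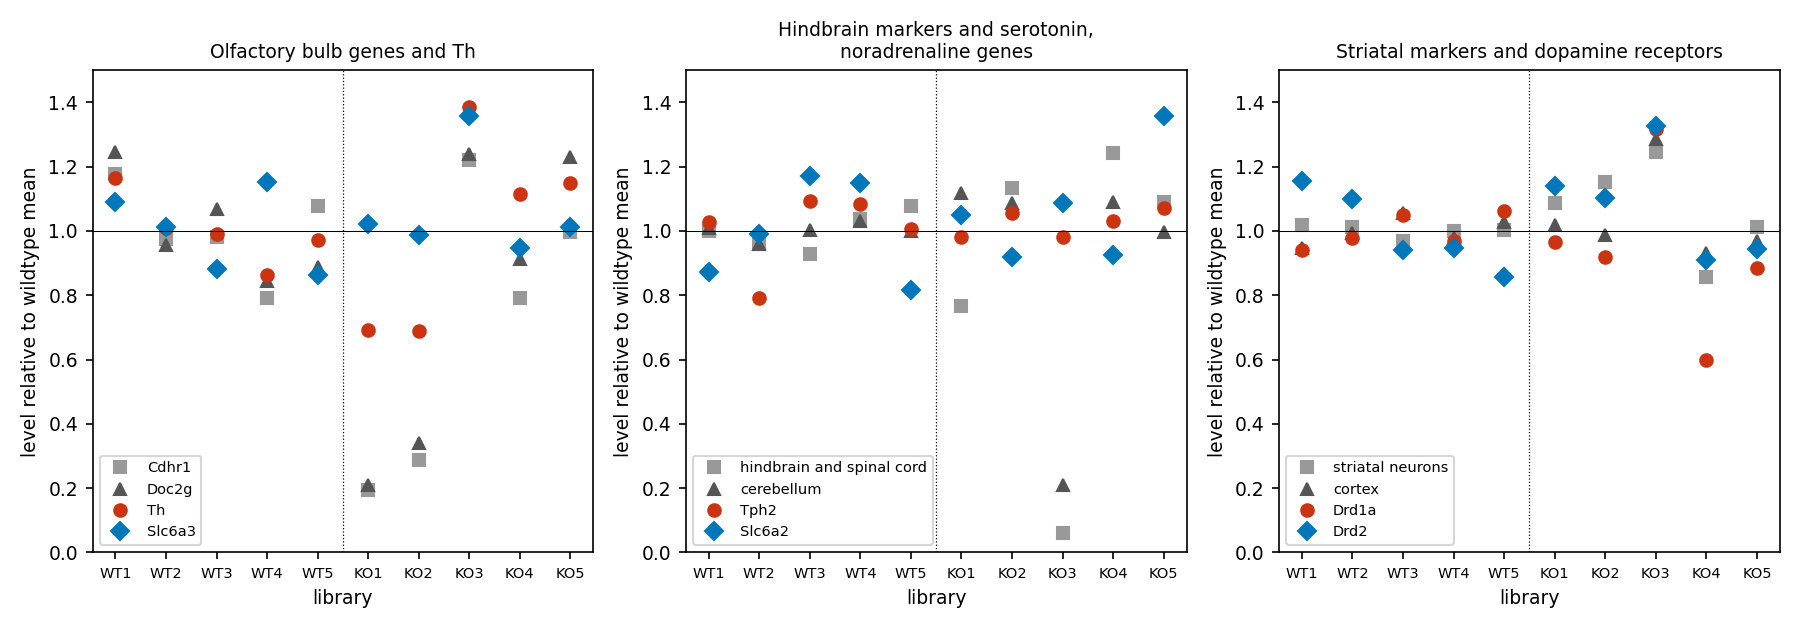
Marker levels and monoamine genes in each library (x axis), relative to the mean of the 5 wildtype libraries (y axis); marker lists are summed CPM and single genes CPM. Th is low with Cdhr1 and Doc2g in knockout replicates 1 and 2, Tph2 and Slc6a2 are not low in knockout replicate 3 where hindbrain and cerebellar markers are, and Drd1a is highest and lowest where the striatal markers are.

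Pairs of genes from the same neurons or tissue were compared over the 10 libraries, 6 pairs in all, and none passed the test. Th and Slc6a3 of dopamine neurons had a Pearson r of 0.36 (permutation p = 0.307, adjusted p = 0.461) and a Spearman rho of 0.33 (permutation p = 0.348, adjusted p = 0.892). Without the 2 brains farthest from the median of Th, knockout replicates 1 and 2, r was 0.52, and without knockout replicate 3 it was -0.083. For Tph2 and Slc6a4 of serotonin neurons r was 0.60 (permutation p = 0.0984, adjusted p = 0.295) and rho 0.079 (permutation p = 0.838, adjusted p = 0.892), and r was -0.14 without wildtype replicates 2 and 3, so that the value rests on these brains. For Drd1a and Drd2, which mark different neurons of the striatum, r was 0.47 (permutation p = 0.155, adjusted p = 0.310), rho was 0.12 (permutation p = 0.756, adjusted p = 0.892), and r was -0.48 without knockout replicates 3 and 4. Htr2c and Ttr, both found in the choroid plexus, gave r of -0.58 (permutation p = 0.0688, adjusted p = 0.295) and rho of -0.33 (permutation p = 0.347, adjusted p = 0.892), with r of -0.40 without knockout replicates 3 and 4 and -0.19 without knockout replicate 3 alone. Dbh and Slc6a2 gave r of 0.27 (permutation p = 0.444, adjusted p = 0.533) and rho of 0.13 (permutation p = 0.732, adjusted p = 0.892), with r of 0.12 without wildtype replicates 3 and 5 and 0.67 in the 7 shallower libraries (permutation p = 0.131, adjusted p = 0.378). Tph2 and Fev gave r of 0.068 (permutation p = 0.829, adjusted p = 0.829) and rho of -0.055 (permutation p = 0.892, adjusted p = 0.892), with r of 0.16 without wildtype replicates 2 and 3. Taking each brain's deviation from its genotype mean gave r of -0.64 for Htr2c and Ttr, the one unadjusted p for r under 0.05 (permutation p = 0.0446, adjusted p = 0.175), and no pair passed after adjustment.

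Other genes of the pathway were read from 5 lists. Of 13 tested genes among the other enzymes and cofactor genes, 0 were called, and the list median was 0.06. Of 4 carriers and 5 receptors 0 were called, with medians of -0.02 and -0.06. Of 12 transcription factors of monoamine neurons 1 was called, lower in knockout, with a median of -0.07, and of 21 receptor signalling partners 0 were called, with a median of 0.04. The share called over all tested genes was 1.18%, with 0.964% lower in knockout. The gene called was Nr4a2, an orphan nuclear receptor needed by midbrain dopamine neurons and also induced by activity in other neurons. Nr4a2 was at 42.1, 40.9, 41.4, 38.998 and 41.0 CPM in the wildtype and 26.5, 27.6, 38.3, 22.9 and 27.1 CPM in the knockout brains. All 5 knockout brains lay below the wildtype ones, with knockout replicate 3 closest to them. Of all tested genes 2.64% had groups that did not overlap in this direction. Between genotypes the log2 fold change was -0.55 (SE 0.0994, adjusted p = 0.0124). Without knockout replicates 1 and 2 the log2 fold change was -0.52 (adjusted p = 0.128). The 7 shallower libraries by themselves gave -0.41 (adjusted p = 0.195), and both fits hold fewer brains.

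Hdc, histidine decarboxylase, the enzyme that makes histamine, had the smallest p of the other enzymes. It was at 3.88, 3.21, 3.74, 3.05 and 3.62 CPM in the wildtype and 4.17, 4.92, 4.88, 4.70 and 4.64 CPM in the knockout brains. Every knockout brain lay above every wildtype brain, and over all tested genes 1.54% had groups that did not overlap in this direction. The log2 fold change was 0.41 (SE 0.113), but with an adjusted p of 0.0954 the gene did not pass, and it did so only under limma-voom with library weights among the tests run (adjusted p = 0.0364). Hypothalamic markers, 12 genes, which mark the region where histamine neurons lie, summed to 36.8 to 39.7 CPM in the wildtype and 38.6 to 56.2 CPM in the knockout brains. Of the 8 tested, 7 had a log2 fold change above 0 and 1 below (median 0.21). Among them 1 was called higher (edgeR adjusted p = 0.0233), where 0.213% of all tested genes were. Whether the share of hypothalamic tissue set the Hdc level was not tested. The genes of smallest p in the other lists were Slc29a4, a low-affinity monoamine carrier, at -0.07 (adjusted p = 0.807), Adra2b at -0.40 (adjusted p = 0.336) and Caly, a vesicle membrane protein of neurons, at 0.21 (adjusted p = 0.157). Caly also passed under limma-voom with library weights (adjusted p = 0.0478).

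In the authors' deposited table none of the 38 genes had an adjusted p under 0.05 either. The smallest adjusted p in the authors' deposited table was 0.543, for Hrh2, with a log2 fold change of -0.25. For Th the authors' deposited table gives -0.11 with an adjusted p of 0.868, and for Htr1b -0.33 with an adjusted p of 0.656.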

How the data were processed

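Whole brain RNA of 5 wildtype and 5 Abcc5 knockout mice was analysed from 1 deposited table of 25050 genes. The counts per gene and library are the authors' own; TopHat2 2.0.6, HTSeq, edgeR and limma are named, without roles, per the submitters' processing notes, and the genome build and strand of counting are not given in the sources used here. The authors also deposited a log2 fold change (another unit, with 629 damaged cells) and an adjusted p-value per gene (8 damaged cells). A second set of 10 columns of per-library values was damaged and not used.

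Genes passing filterByExpr (minimum count 10, minimum total 15; 14526 genes) were tested on the counts with edgeR 4.0.16 (R 4.3.3), TMM scaling and the quasi-likelihood test, with Benjamini-Hochberg adjustment over all of them. Standard errors came from the F statistic. CPM are scaled by TMM, and correlations used log2 CPM with a prior count of 2 and 100000 permutations, two-sided. Exon lengths came from GENCODE annotation, matched by Ensembl ID. The test was checked on simulated data. Alternatives used limma 3.58.1, DESeq2 1.42.0 and other scalings, filters and samples. Totals of 7731294 to 23588335 counts set the precision. Replicates of a genotype differed by more than counting error. Replicate numbers did not pair the brains, as the closing section gives.

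Members and gene lists were chosen with earlier results of these data known. Described in full are the 2 members of smallest p in each role, those of the correlation pairs, those with an outlying library and the 5 of largest variation within groups; elsewhere, called genes and the gene of smallest p in each list. Nr4a1, Fos, Egr1, Creb1 and Adrb1 were named after their values were seen.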

Additional observations from a re-analysis of the deposited data

Results flagged for a closer look

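In 9 of 68 sets of 5 brains (34 genes, each genotype) 1 brain lay far from the other 4, its gap being more than 0.71 of the range; chance gives about 1 in 20. Knockout replicate 3 was high for Gch1 (4.49 CPM), Slc6a3 (21.2 CPM) and Htr1f (4.75 CPM). Wildtype replicate 1 was low for Drd5 (1.06 CPM) and Htr1f (2.06 CPM), and wildtype replicate 2 was low for Tph2 (10.02 CPM). Knockout replicate 2 was high for Htr1b (1.73 CPM), knockout replicate 1 low for Adra2a (15.9 CPM) and knockout replicate 5 low for Adra2c (11.96 CPM).

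Among the marker lists this held for 5 of 32 sets, 4 of them with knockout replicate 3. That brain was low in the summed cerebellar markers (336.8 CPM) and the habenula and thalamus markers (293.3 CPM) and high in the cortical (488.6 CPM) and microglial markers (257.1 CPM). Knockout replicate 5 was high in the summed pituitary and pineal markers (4.27 CPM).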

How the results depend on the processing

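No member was called under any of 21 alternatives. Of 714 values of single members under them 667 kept their sign; 15 members changed sign somewhere and 19 did not. The cause of these sign changes, and of the moved counts below, was not tested. Fev, Drd3, Drd4 and Slc18a1 were left out by the low-count filter; without it 38 members were tested and 0 called.

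Over all genes, 31 were called higher and 140 lower. Replicate numbers did not pair the brains (correlations of deviations from -0.14 to 0.089, and 1 of 5 wildtype brains matched its own number best). With the replicate block 8 were called higher and 82 lower, and 0 members. The depth class as a term gave 48 higher, DESeq2's Wald test 50, limma-voom with library weights 171 higher and 392 lower, the shallower libraries alone 5 and 26, leaving out knockout replicates 1 and 2 (chosen after seeing the data) 7 and 55, a threshold of 0.01 6 and 57, and one of 0.1 102 and 271. Leaving out 1 brain gave 8 to 93 higher and 67 to 248 lower. Of the other pathway genes, 2 were called higher with library weights and 1 at 0.1; 0 were called lower in the shallower libraries alone, without knockout replicates 1 and 2, or at 0.01. The transporters' median was 0.18 in the shallower libraries alone.

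Log2 fold changes with a changed sign were as follows. With the replicate block Maob was at -0.0039 and Htr1d at 0.0017. With the depth class as a term Slc18a2 was at 0.015 and Adra2c at -0.017. With limma-voom Adra1d was at -0.028. With library weights Slc6a2 was at -0.022, Slc6a3 -0.014, Maob -0.017, Drd5 -0.022, Htr1f -0.021, Adra1d -0.044 and Slc29a4 0.022. In the shallower libraries alone Th was at 0.16, Slc18a2 0.024, Maob -0.049, Drd1a 0.056, Htr1d 0.14 and Htr3a 0.00070. Without knockout replicates 1 and 2 Th was at 0.25, Slc18a2 0.0027, Htr2a -0.027 and Htr6 -0.049.

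Leaving out 1 brain moved Th from -0.15 to 0.10, Tph2 from -0.032 to 0.069, Slc6a2 from -0.028 to 0.12, Slc6a3 from -0.044 to 0.10, Slc18a2 from -0.061 to 0.0088, Maob from -0.015 to 0.040, Drd1a from -0.27 to 0.022, Drd5 from -0.088 to 0.25, Htr1d from -0.10 to 0.067, Htr6 from -0.046 to 0.22, Adra1d from -0.079 to 0.068, Adra2c from -0.029 to 0.14 and Slc29a4 from -0.13 to 0.017. Pearson r changed sign for Th and Slc6a3 without knockout replicate 3 (-0.083), Tph2 and Slc6a4 (-0.14) and Drd1a and Drd2 (-0.48) without the 2 farthest brains, and Tph2 and Fev in the shallower libraries alone (-0.049).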
